A study of Mus musculus with 6 samples.

Results

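The heat shock proteins described here were 10 named genes of 54532 gene identifiers measured in mouse liver. These 10 genes were chosen with earlier results of these data known. They comprised Hspb1, Hspa1a, Hspa1b, Hspa8, Hsph1, Dnajb1, Hsp90aa1 and Hsp90ab1, whose products act mainly in the cytosol, and Hspd1 and Hspe1, whose products act in the mitochondrial matrix. All 10 symbols matched an Ensembl identifier of the expression tables through GENCODE vM21, and all 10 passed the filter on low values. RNA was sequenced in 3 liver libraries labelled as an Arid2 liver-specific knockout (LKO) and 3 liver libraries labelled wild type (WT), all untreated. ARID2 is a subunit of the PBAF chromatin remodelling complex, and the title of the series places it beside hepatic steatosis and the kinase JAK2. The labels give neither strain, age and sex nor the promoter that drove the deletion, and they do not say that each library came from a separate animal. P-values therefore measure only the spread between these libraries.

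Heat shock proteins are molecular chaperones. HSP70 proteins bind exposed hydrophobic stretches of unfolded proteins in cycles of ATP hydrolysis that HSP40 proteins start and nucleotide exchange factors end, and HSP90 dimers finish the folding of kinases and steroid receptors. The transcription factor HSF1 induces many of these genes by binding heat shock elements, inverted repeats of the unit GAA. In liver, several of the genes follow body temperature over the day, so their levels also depend on the time at which tissue is taken.

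Heat shock elements were searched in promoter sequences because these elements are the known link between the members. RefSeq promoter windows (GRCm38.p6, 250 bases before to 50 bases after a start) were held for 7 of the 10 members. Hspa8, Hsp90aa1 and Hsp90ab1 had no entry. The search used GAANNTTC or TTCNNGAA as a pair of units, and such a pair continued after any 2 bases by the next alternating unit (GAA or TTC) as an element of 3 units. Both motifs were read on both strands, and an element of 3 units contains pairs. An element of 3 units was present in windows of 3 members (Hspd1, Hspe1 and Hsph1), against 0.662% of all 27025 genes with a window. Hspd1 and Hspe1 share the same stretch, and the Hsph1 element lay after the start. A pair of units was present in windows of 6 members, every one of the 7 but Dnajb1, against 17.0% of all genes with a window (0.603% and 15.1% of the 32851 windows held the longer and the shorter motif). The 3 windows printed here are those of the mitochondrial pair, which share an element, and of the 2 members with the largest differences between the genotypes. Capitals mark every match to a pair or to 3 units in the 250 bases before the start, read 5′ to 3′ on the strand of the gene.
Hspe1 (chr1:55087898-55088147, plus strand): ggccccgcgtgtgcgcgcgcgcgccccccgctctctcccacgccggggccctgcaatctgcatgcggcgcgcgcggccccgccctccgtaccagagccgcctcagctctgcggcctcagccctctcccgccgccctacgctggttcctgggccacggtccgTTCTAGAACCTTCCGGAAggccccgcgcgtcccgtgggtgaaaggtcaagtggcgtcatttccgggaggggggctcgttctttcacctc
Hspb1 (chr5:135887669-135887918, plus strand): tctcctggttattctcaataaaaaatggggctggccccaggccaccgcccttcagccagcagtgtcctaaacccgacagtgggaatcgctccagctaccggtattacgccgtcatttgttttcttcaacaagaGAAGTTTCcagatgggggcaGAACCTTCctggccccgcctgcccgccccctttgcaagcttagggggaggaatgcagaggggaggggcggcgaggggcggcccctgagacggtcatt
Hspa1b (chr17:34959239-34959488, minus strand): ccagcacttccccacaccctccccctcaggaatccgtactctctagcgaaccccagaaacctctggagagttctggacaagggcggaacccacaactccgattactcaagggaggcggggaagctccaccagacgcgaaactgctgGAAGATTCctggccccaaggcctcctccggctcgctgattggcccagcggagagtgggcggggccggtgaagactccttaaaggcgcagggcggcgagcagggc
The capitals in the Hspe1 window form 1 run of alternating units that begins 89 bases before the start. Hspd1 lies head to head with Hspe1 on the opposite strand, and the same run fell in one of its windows. The Hspb1 window held 2 separate pairs of units, beginning 117 and 97 bases before the start. The Hspa1b window held 1 pair, beginning 104 bases before the start. The Hspa1a window differed from that of Hspa1b at 4 of 300 bases, T44C, C47T, G249T and T276C (Hspa1b base first, position counted from 1 at the 5′ end of the window, then the Hspa1a base), and it held the same pair. A match is a sequence description and not a measured binding site.

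Expression values were FPKM, which are relative to exon length, so that levels of different genes can be set side by side. Reads recovered from the FPKM steps came to between 13947787 and 18159282 per library. Spread over 1 kb of transcript, 3 reads were worth 0.156 to 0.236 FPKM, and this limit reflects counting error alone. The replicate 1 library of each genotype differed from the rest. These held the highest shares of reads from the mitochondrial genome within their groups (27.6% in LKO replicate 1 and 20.7% in WT replicate 1, against 4.76% to 18.5% in the other 4). These 2 libraries also held the fewest genes with 1 to 5 reads, 2368 in LKO replicate 1 and 2003 in WT replicate 1. The summed FPKM of 10 hepatocyte genes, albumin among them, lay between 53497 and 69755 in LKO and between 48399 and 62021 in WT. Arid2 did not separate the groups. It was at 2.55, 1.33 and 2.04 FPKM in LKO and 2.65, 1.74 and 1.79 FPKM in WT (limma log2 difference -0.05 ± 0.24 SE, adjusted p = 0.974). The deleted exons are not given in the labels and the values cover the whole gene, so Arid2 did not check the labels, and LKO and WT name the label of a library throughout.

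None of the 10 heat shock genes passed the threshold between the genotypes, although all 10 were fitted above 0 and Hspb1 was higher in every LKO library than in any WT library, with a mean 4.74 times that of WT. Called by limma-trend at an adjusted p under 0.05 were 0 of 10 members, against a background of 0.0428% of the 11672 genes tested (0.00857% higher and 0.0343% lower in LKO). Voom on recovered reads also called 0 members. At an unadjusted limma p under 0.05 there were 2 members, Hspb1 and Hspa1b, both higher in LKO, against 4.28% of all tested genes that were higher and 4.93% that were lower. The same 2 members had a log2 difference of at least 1, against 2.76% of all tested genes. For 3 members, Hspb1, Hspa1b and Hsp90aa1, every LKO library lay above every WT library, which was so for 8.0% of all tested genes. No member lay below WT in every LKO library, against 7.42% of tested genes. The median log2 difference of the members was 0.44, beside 0.03 over all tested genes, and 54.1% of all tested genes were fitted above 0. The members were chosen with earlier results of these data known, so the shares beside them describe and do not test. With 3 libraries against 3, no exact permutation p can go under 0.1 for any value. In bulk tissue, more cells of a type and more RNA per cell cannot be told apart.

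**Figure D1:**
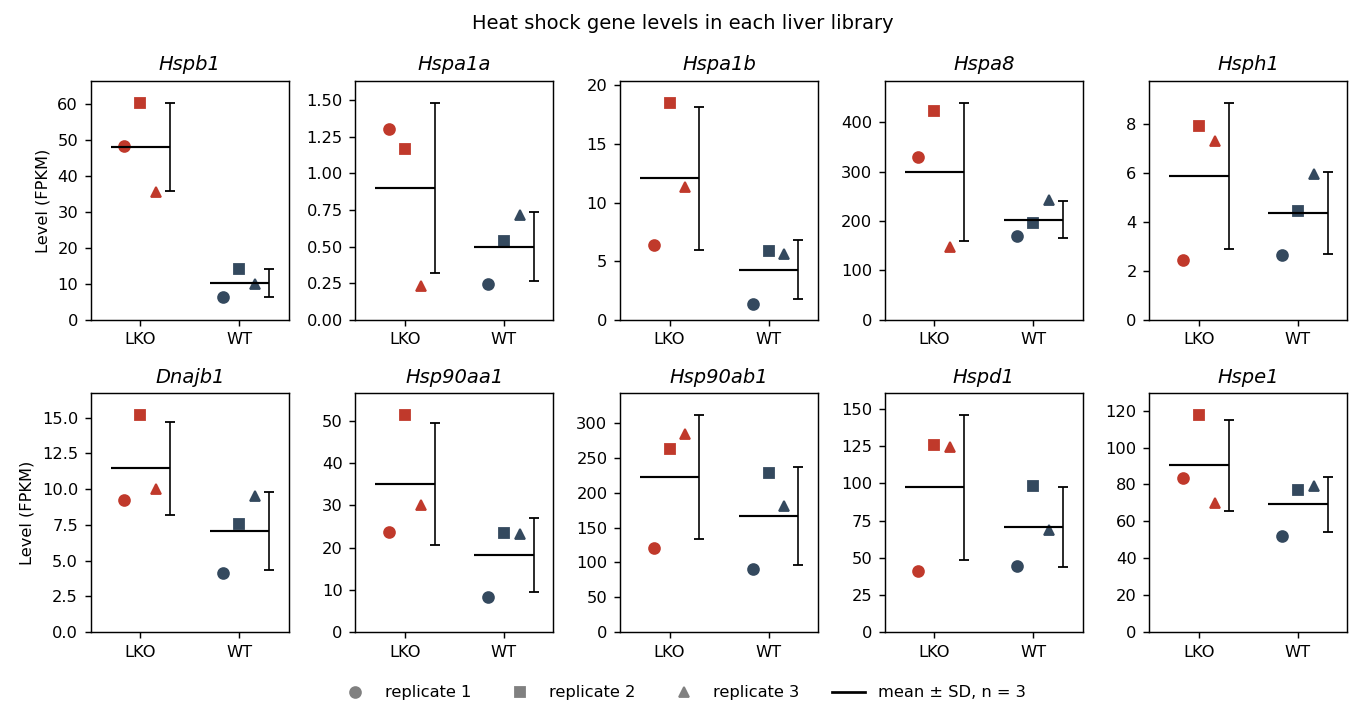
FPKM (vertical axis, a separate linear scale per gene) of each heat shock gene in 3 LKO and 3 WT libraries. Symbols give the replicate number, horizontal lines the group mean and bars the SD. The LKO and WT libraries do not overlap for Hspb1, Hspa1b and Hsp90aa1, and WT replicate 1 is the lowest WT library for all 10 genes.

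Among the small heat shock proteins, Hspb1 encodes the ATP-independent holdase known as HSP25 in mouse and HSP27 in human, which binds unfolding proteins and acts on actin filaments. Hspb1 (ENSMUSG00000004951, mm10 chromosome 5, 135887919 to 135889563, plus strand) was at 48.4, 60.4 and 35.7 FPKM in the LKO libraries (634, 973 and 700 reads). In the WT libraries it was at 6.44, 14.2 and 9.87 FPKM (128, 257 and 159 reads). The lowest LKO library thus stood well above the highest WT library. The means were 48.2 ± 12.3 FPKM in LKO and 10.2 ± 3.87 FPKM in WT (SD, n = 3 each), a ratio of 4.74. The limma log2 difference was 2.17 ± 0.36 (SE; 95% interval 1.34 to 2.999), with an adjusted p of 0.135. With 1 library left out in turn it ranged from 1.91 to 2.42, and the limma adjusted p from 0.0878 to 0.526. Array quality weights, an alternative whose weight estimation stopped short of convergence, called Hspb1 (limma adjusted p = 0.00600), as well as 5.32% of all genes as higher. The ratio of Hspb1 to Hspa8 within each library does not depend on the scaling between libraries. It was 0.147, 0.143 and 0.242 in LKO and 0.0381, 0.0726 and 0.0406 in WT, again without overlap. The ratio of 0.242 was in LKO replicate 3, where Hspb1 was lowest within LKO and Hspa8 (148 FPKM) lowest of all 6 libraries. Ratios of other genes to Hspa8 were not compared as a background. Of the 100-base windows of the Hspb1 transcript, 42.7% occur in the pseudogene Hsp25-ps1, which was at 0.125 FPKM or less in every library.

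The inducible HSP70 genes Hspa1a and Hspa1b lie close together on chromosome 17 and encode nearly the same protein. Hspa1b (ENSMUSG00000090877, 34956436 to 34959238, minus strand) was at 6.37, 18.5 and 11.3 FPKM in LKO and at 1.39, 5.88 and 5.596 FPKM in WT. The LKO libraries lay above the WT libraries, with LKO replicate 1 close to WT replicates 2 and 3. The means were 12.1 ± 6.10 FPKM in LKO and 4.29 ± 2.52 FPKM in WT (SD, n = 3 each; limma log2 difference 1.34 ± 0.52 SE, 95% interval 0.13 to 2.55, adjusted p = 0.486). With 1 library left out the difference ranged from 0.84 (without WT replicate 1) to 1.70 (without LKO replicate 1), and with array quality weights the limma adjusted p was 0.0413.

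Hspa1a (ENSMUSG00000091971, 34969190 to 34972156, minus strand) was far lower, at 1.300, 1.16 and 0.231 FPKM in LKO and 0.245, 0.536 and 0.712 FPKM in WT. These values rest on 49, 54 and 13 reads in LKO and 14, 28 and 33 reads in WT. LKO replicate 3 was the lowest of all 6 libraries, so the groups overlapped (limma log2 difference 0.30 ± 0.29 SE, adjusted p = 0.825). The difference was 0.59 without LKO replicate 3, 0.14 without LKO replicate 1, 0.18 without LKO replicate 2 and 0.17 without WT replicate 1. Of the 100-base windows of their transcripts, 48.6% for Hspa1a and 49.9% for Hspa1b occur unchanged in another gene, mostly in each other, so how reads were divided between them is uncertain. The sources used here give neither the read length nor the handling of reads with several matches. Summed, the pair was at 7.67, 19.7 and 11.5 FPKM in LKO and 1.63, 6.42 and 6.31 FPKM in WT (limma log2 difference 1.33, adjusted p = 0.476). Hspa1a was read from a small share of that sum in every library, and the ratio of Hspa1a to Hspa1b ran from 0.0204 to 0.204 in LKO and from 0.0912 to 0.176 in WT.

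Hspa8 encodes HSC70, the constitutive cytosolic HSP70 that also uncoats clathrin vesicles and serves chaperone-mediated autophagy. It was among the most abundant members in every library. Hspa8 (ENSMUSG00000015656, chromosome 9, 40800984 to 40810087, plus strand) was at 330, 422 and 148 FPKM in LKO, against 169, 195 and 243 FPKM in WT. LKO replicates 1 and 2 were above every WT library, and LKO replicate 3 was below every WT library. The limma log2 difference was 0.45 ± 0.45 SE (adjusted p = 0.833), and it was 0.90 without LKO replicate 3 and 0.14 without LKO replicate 2. Of its 100-base transcript windows, 31.6% occur in other genes, all of them listed with names of predicted genes, of which Gm8355 reached 5.31 FPKM.

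Hsph1 encodes HSP105 and Dnajb1 encodes HSP40, a nucleotide exchange factor and a J-domain partner of HSP70. Hsph1 (ENSMUSG00000029657, chromosome 5, 149614287 to 149636376, minus strand) was at 2.46, 7.90 and 7.30 FPKM in LKO and 2.66, 4.45 and 5.97 FPKM in WT. LKO replicate 1 was the lowest library of all, and the other LKO libraries were above WT (limma log2 difference 0.29 ± 0.43 SE, adjusted p = 0.901). The Hsph1 difference was 0.73 without LKO replicate 1 and 0.51 without WT replicate 3, but 0.05 without LKO replicate 2, 0.10 without LKO replicate 3 and 0.04 without WT replicate 1. Dnajb1 (ENSMUSG00000005483, chromosome 8, 83608193 to 83612653, plus strand) was at 9.21, 15.2 and 9.99 FPKM in LKO and 4.16, 7.59 and 9.53 FPKM in WT. Only LKO replicate 1 overlapped WT, lying just below WT replicate 3 (limma log2 difference 0.65 ± 0.34 SE, adjusted p = 0.635). With 1 library left out the Dnajb1 difference ranged from 0.36 (without WT replicate 1) to 0.87 (without WT replicate 3). No 100-base window of either transcript occurs in another gene.

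The cytosolic HSP90 proteins are encoded by the inducible Hsp90aa1 and the constitutive Hsp90ab1. Hsp90aa1 (ENSMUSG00000021270, chromosome 12, 110690605 to 110702728, minus strand) was at 23.7, 51.4 and 30.0 FPKM in LKO, and at 8.22, 23.5 and 23.1 FPKM in WT. The groups did not overlap, but LKO replicate 1 and WT replicate 2 were nearly equal (limma log2 difference 0.96 ± 0.48 SE, adjusted p = 0.607). Without WT replicate 1 the difference was 0.49. Of its 100-base transcript windows 47.55% occur in other genes, of which Gm12346 reached 1.02 FPKM. Hsp90ab1 (ENSMUSG00000023944, chromosome 17, 45567775 to 45573271, minus strand) was at 121, 263 and 284 FPKM in LKO, and at 90.5, 229 and 181 FPKM in WT. Within each genotype replicate 1 held the lowest Hsp90ab1, and the difference between genotypes was small beside that spread (limma log2 difference 0.42 ± 0.49 SE, adjusted p = 0.867). It was 0.03 without WT replicate 1 and 0.81 without LKO replicate 1. The ratio of Hsp90aa1 to Hsp90ab1 was 0.196, 0.195 and 0.106 in LKO and 0.0908, 0.103 and 0.128 in WT, so that LKO replicate 3 lay among the WT libraries.

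Hspd1 and Hspe1 encode HSP60 and HSP10, the barrel and the lid of the mitochondrial chaperonin. Their annotated genes overlap by 112 bases at their 5′ ends on opposite strands (chromosome 1, 55088132 to 55088243), and the sources used here do not state the strand setting of the counting. Hspd1 (ENSMUSG00000025980, 55077835 to 55088243, minus strand) was at 41.2, 126 and 125 FPKM in LKO and 44.8, 98.4 and 68.8 FPKM in WT. LKO replicate 1 was the lowest of all 6 libraries, and LKO replicates 2 and 3 were above WT (limma log2 difference 0.36 ± 0.52 SE, adjusted p = 0.899). The difference was 0.89 without LKO replicate 1, 0.10 without LKO replicate 3, 0.09 without LKO replicate 2 and 0.07 without WT replicate 1. Hspe1 (ENSMUSG00000073676, 55088132 to 55091307, plus strand) was at 83.3, 118 and 70.1 FPKM in LKO and 52.1, 76.8 and 78.9 FPKM in WT. Here LKO replicate 3 fell among the WT libraries, while LKO replicates 1 and 2 were above them (limma log2 difference 0.37 ± 0.33 SE, adjusted p = 0.810). With 1 library left out the Hspe1 difference ranged from 0.16 (without LKO replicate 2) to 0.53 (without LKO replicate 3), and it was 0.18 without WT replicate 1. The chaperonin partners did not keep a constant ratio. Hspd1 over Hspe1 was 0.495, 1.07 and 1.78 in LKO and 0.859, 1.28 and 0.872 in WT, so the LKO libraries held both the lowest and the highest ratio. Of the Hspd1 transcript windows of 100 bases, 26.9% occur in another gene; the pseudogene Hspd1-ps3 is one of them, at 1.74, 4.94 and 14.4 FPKM in LKO and 1.08, 2.74 and 3.27 FPKM in WT.

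**Figure D2:**
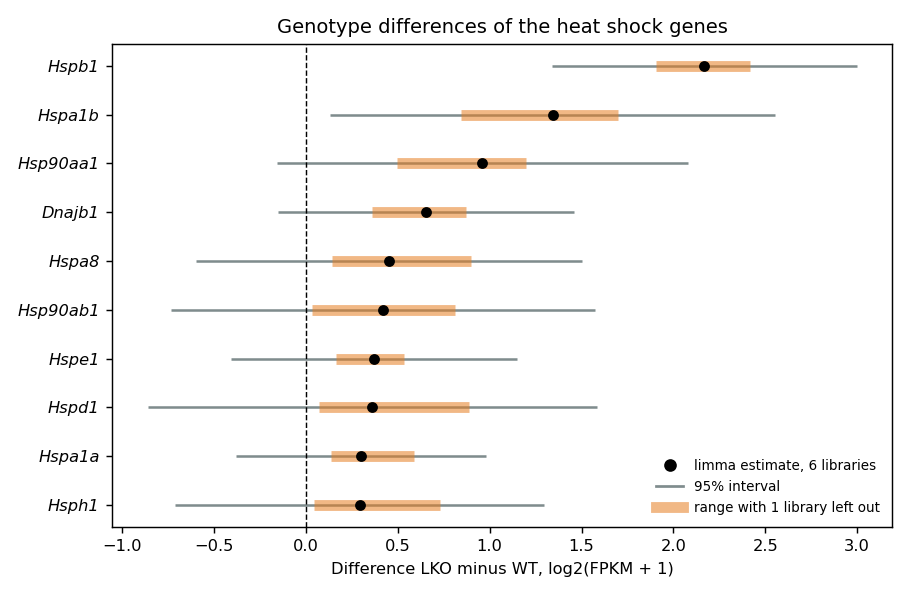
Difference LKO minus WT on the log2(FPKM + 1) scale (horizontal axis) for each heat shock gene, with the limma 95% interval (thin line) and the range of the estimate when each of the 6 libraries was left out (thick line). Of the 10 intervals, only those of Hspb1 (1.34 to 2.999) and Hspa1b (0.13 to 2.55) lie above 0, and every estimate with 1 library left out is above 0.

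The spread within genotypes followed the libraries. WT replicate 1 was the lowest WT library for 10 of 10 members and the lowest of all 6 libraries for 6. LKO replicate 2 was above every WT library for 10 of 10 members and the highest of all 6 libraries for 8. LKO replicate 3 was above every WT library for 7 members and LKO replicate 1 for 6. Such counts by library were not made over all tested genes, so whether this order is particular to the heat shock genes was not tested. LKO replicate 1 was the lowest LKO library for 6 members (Hspa1b, Hsph1, Dnajb1, Hsp90aa1, Hsp90ab1 and Hspd1), and LKO replicate 3 was lowest for the other 4 (Hspa1a, Hspa8, Hspb1 and Hspe1). The mean over the members, each centred on the log2(FPKM + 1) scale, was 0.01, 0.83 and 0.26 in LKO replicates 1 to 3 and -0.94, -0.06 and -0.09 in WT replicates 1 to 3. LKO replicate 1 therefore stood next to WT replicates 2 and 3 in this mean, and WT replicate 1 stood alone at the low end. The summed FPKM of the 10 members was 667, 1083 and 721 in LKO and 379, 655 and 627 in WT. As a share of all FPKM outside the mitochondrial genome this was 0.178%, 0.251% and 0.204% in LKO and 0.114%, 0.172% and 0.158% in WT. By this measure the groups did not overlap, but LKO replicate 1 (0.178%) was close to WT replicate 2 (0.172%). Hspa8 and Hsp90ab1, which each overlapped between the groups, were the largest parts of the sum in every library. The same share was not computed for other sets of genes. With both replicate 1 libraries left out, the members without overlap were 7, where 25.9% of all tested genes were without overlap in the same direction, and the median log2 difference was 0.48. Without LKO replicate 1 they were also 7 (21.2% of all tested genes) and without LKO replicate 3 they were 6 (15.4%). Without WT replicate 3 they were 4 (10.4%), and 3 without LKO replicate 2 (10.1%), WT replicate 1 (11.8%) or WT replicate 2 (12.8%). When FPKM was rescaled to an equal sum per library, which lets the mitochondrial share enter, only Hspb1 was without overlap (5.49% of all tested genes). When the mitochondrial genome was left out of that sum, 4 members were (6.06%), and after quantile normalization 3 were (7.85%).

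**Figure D3:**
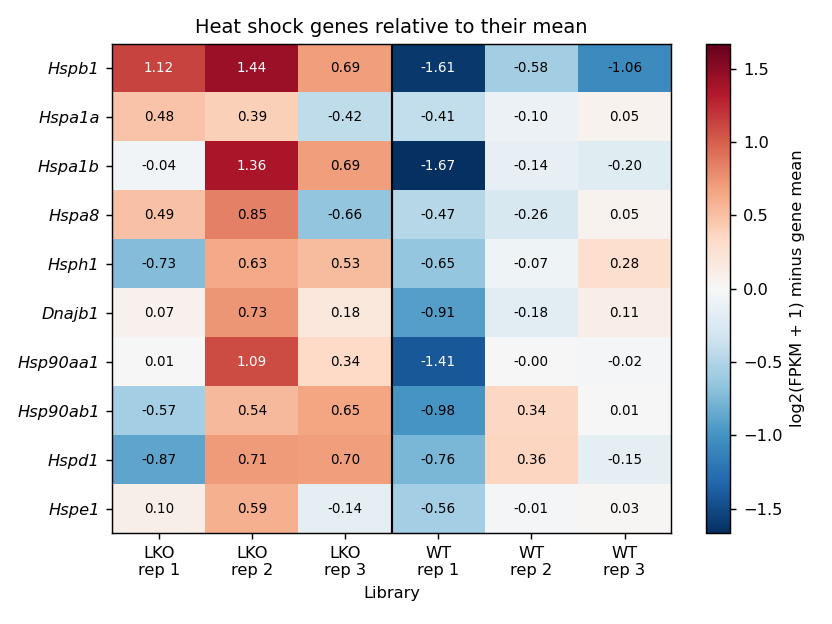
Each heat shock gene (rows) in the 6 libraries (columns, LKO left of the line and WT right of it) as log2(FPKM + 1) minus the mean of the gene over all libraries; red is above the mean and blue below it. WT replicate 1 is below the mean for every gene, LKO replicate 2 is above it for every gene, and Hspb1 is above it in all LKO libraries (0.69 to 1.44) and below it in all WT libraries (-1.61 to -0.58).

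The wider chaperone network was described through 7 lists of further genes, chosen with earlier results of these data known. Of their 88 genes, 81 were tested and 0 were called by limma. With array quality weights limma called 2 genes in each of the heat shock factor and small heat shock protein lists. It called 1 in each of the HSP70, HSP90 co-chaperone and mitochondrial lists, and 0 in the HSP40 and TRiC lists. Those weights called 621 genes higher and 574 lower of all 11672 tested. At an unadjusted limma p under 0.05, 4 were higher and 2 lower in LKO, against 4.28% and 4.93% of all tested genes. Of the 81, 60 (74.1%) were fitted above 0, against 54.1% of all tested genes, with a median log2 difference of 0.16. In 8 (9.88%) every LKO library was above every WT library, close to the 8.0% of all tested genes, and in 4 every LKO library was below, against 7.42% of all tested genes.

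Among heat shock factors and their regulators (6 tested, median 0.11), Hsf1 itself overlapped between the groups. It was at 6.01, 2.98 and 1.78 FPKM in LKO and 4.39, 2.32 and 2.57 FPKM in WT. The interval was wide (limma log2 difference 0.09, 95% interval -0.80 to 0.98, adjusted p = 0.968). Bag3, a nucleotide exchange factor that is itself heat-inducible and links HSP70 to small heat shock proteins, was at 17.4, 26.0 and 15.4 FPKM in LKO and 6.01, 8.65 and 10.8 FPKM in WT (limma log2 difference 1.12 ± 0.32 SE, adjusted p = 0.331). Bag3 was thus higher in every LKO library, without passing the test. Hsf2, a second heat shock factor, was at 1.67 ± 0.651 FPKM in LKO and 2.92 ± 0.281 FPKM in WT (limma adjusted p = 0.526). Hsf4 was at 7.09 ± 2.07 FPKM in LKO and 11.6 ± 6.13 FPKM in WT (limma adjusted p = 0.736).

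The other small heat shock proteins did not share one direction (4 of 7 tested, median -0.21; Hspb3 was at 0 in every library). Hspb8, the partner of BAG3 in chaperone-assisted autophagy, was at 227, 246 and 116 FPKM in LKO and 69.2, 70.3 and 76.4 FPKM in WT (limma log2 difference 1.36 ± 0.37 SE, adjusted p = 0.316). Like Hspb1, it was higher in each LKO library than in any WT library and lowest, within LKO, in replicate 3. Cryab, encoding alpha-B crystallin, was lower in each LKO library (0.971 ± 0.0204 FPKM in LKO and 1.89 ± 0.425 FPKM in WT, limma adjusted p = 0.457). Hspb6 was at 3.39 ± 0.816 FPKM in LKO and 4.46 ± 1.44 FPKM in WT (limma adjusted p = 0.825).

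HSP70 partners had medians of 0.13 (13 other HSP70 family members and exchange factors) and 0.21 (14 other HSP40 family members). Hspa4, an HSP110-type exchange factor, was at 18.9 ± 4.05 FPKM in LKO and 13.1 ± 1.67 FPKM in WT (limma adjusted p = 0.650). Hspa13 was at 3.47 ± 1.54 FPKM in LKO and 1.43 ± 0.858 FPKM in WT (limma adjusted p = 0.557), and Bag5 at 8.32 ± 4.19 FPKM in LKO and 5.18 ± 0.736 FPKM in WT (limma adjusted p = 0.727). Dnaja1, a J-domain partner of HSP70, was at 31.9 ± 13.9 FPKM in LKO and 18.6 ± 4.51 FPKM in WT (limma adjusted p = 0.646). Dnajc2 was at 4.11 ± 1.21 FPKM in LKO and 2.81 ± 0.190 FPKM in WT (limma adjusted p = 0.695), whereas Dnajc7 was at 7.03 ± 1.18 FPKM in LKO and 9.775 ± 1.07 FPKM in WT (limma adjusted p = 0.652).

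HSP90 co-chaperones (15 tested) had a median of 0.12. Fkbp5, an immunophilin that glucocorticoids induce, was at 14.0, 25.1 and 12.5 FPKM in LKO and 9.49, 7.34 and 5.89 FPKM in WT (limma log2 difference 1.04 ± 0.33 SE, adjusted p = 0.390), with no overlap between groups. Ahsa1, which stimulates the HSP90 ATPase, was at 17.3 ± 3.22 FPKM in LKO and 12.1 ± 4.01 FPKM in WT (limma adjusted p = 0.699). The phosphatase gene Ppp5c was at 12.9 ± 1.86 FPKM in LKO and 15.9 ± 0.825 FPKM in WT (limma adjusted p = 0.789). Among the 14 subunits of the cytosolic chaperonin TRiC and of prefoldin, with a median of 0.19, Cct5 was at 31.5 ± 12.8 FPKM in LKO and 16.1 ± 9.83 FPKM in WT (limma adjusted p = 0.628). Cct3 was at 13.6 ± 4.62 FPKM in LKO and 7.51 ± 3.12 FPKM in WT (limma adjusted p = 0.603), and Cct2 at 34.4 ± 8.88 FPKM in LKO and 22.3 ± 6.01 FPKM in WT (limma adjusted p = 0.650). All 3 TRiC genes overlapped between the groups.

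Mitochondrial chaperones and proteases (15 tested) had a median of 0.31, and 12 of 15 were fitted above 0. Clpx, the unfoldase of the matrix protease CLPXP, was at 17.2, 24.7 and 17.2 FPKM in LKO and 8.65, 13.4 and 10.9 FPKM in WT (limma log2 difference 0.79 ± 0.28 SE, adjusted p = 0.446). Afg3l2, a protease of the inner membrane, was at 24.8 ± 2.98 FPKM in LKO and 17.2 ± 1.501 FPKM in WT (limma adjusted p = 0.604), and the disaggregase gene Clpb at 5.87 ± 0.448 FPKM in LKO and 3.91 ± 0.548 FPKM in WT (limma adjusted p = 0.569). These 3 genes, named for the smallest p in the list, were higher in each LKO library than in any WT library, as were 8.0% of all tested genes. Hspa9, the mitochondrial HSP70, overlapped between the groups (limma log2 difference 0.51, adjusted p = 0.879); it is named for its role, after its values were seen, as was Hsf1.

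**Figure D4:**
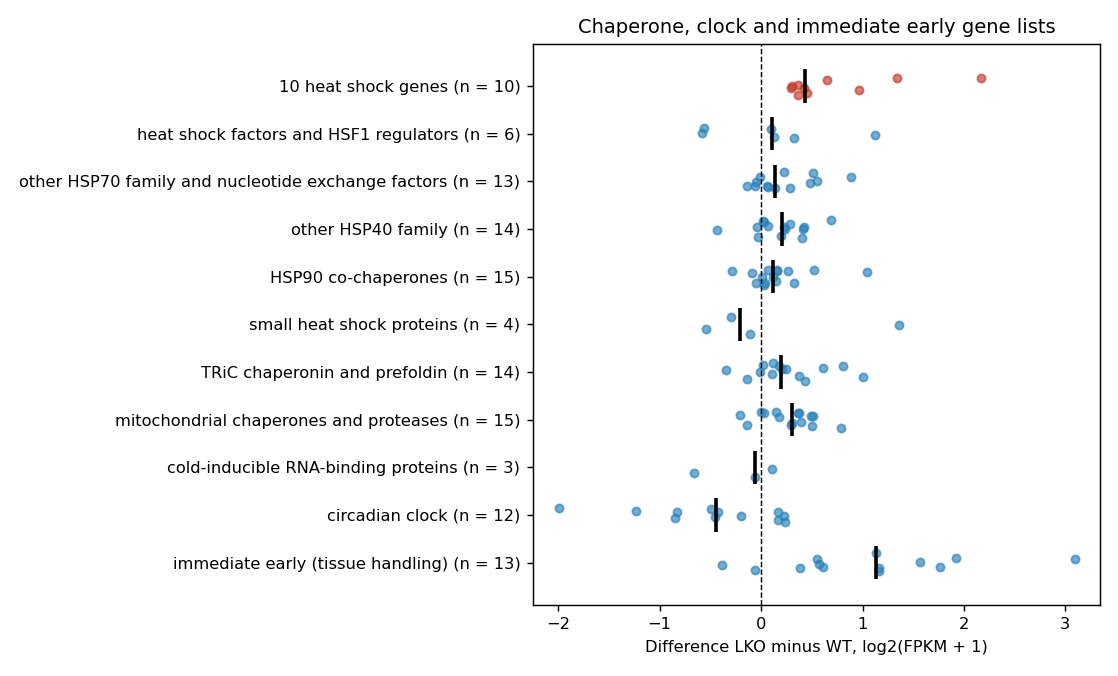
Difference LKO minus WT on the log2(FPKM + 1) scale for each tested gene (points, jittered vertically) of the 10 heat shock genes and of 10 further lists (rows), with the median of each row as a black bar. All 10 heat shock genes lie above 0 (median 0.44), the chaperone lists lie on both sides of it with medians between -0.21 and 0.31, the clock genes have a median of -0.44 and the immediate early genes one of 1.13.

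Genes that respond to temperature, the time of day or tissue handling were set beside the heat shock genes. The sources used here do not give the time and manner of tissue collection. Cirbp, a cold-inducible RNA-binding protein gene, was at 2.33, 2.65 and 4.04 FPKM in LKO and 6.55, 4.17 and 5.21 FPKM in WT (limma log2 difference -0.66 ± 0.27 SE, adjusted p = 0.504). It was lower in each LKO library than in any WT library. The second cold-inducible gene, Rbm3, was at 4.53 ± 1.38 FPKM in LKO and 4.07 ± 0.827 FPKM in WT (limma adjusted p = 0.948), and Srsf5 at 43.1 ± 13.1 FPKM in LKO and 43.8 ± 4.82 FPKM in WT (limma adjusted p = 0.976). Of 12 tested clock genes 0 were called by limma, 3 were lower at an unadjusted p under 0.05 (4.93% of all tested genes) and 0 higher (4.28%), and the median was -0.44. Array quality weights called 2 of the clock genes and 1 of the cold-inducible genes, beside 621 genes higher and 574 lower of all 11672 tested. Dbp, a clock output gene with a steep daily rhythm, was at 7.55, 10.2 and 63.3 FPKM in LKO and 68.1, 101 and 54.2 FPKM in WT (limma adjusted p = 0.469). Dbp was low in LKO replicates 1 and 2 and overlapped WT in LKO replicate 3. Per3 was at 2.28 ± 1.28 FPKM in LKO and 6.43 ± 1.66 FPKM in WT (limma adjusted p = 0.320), and Tef at 24.3 ± 8.02 FPKM in LKO and 43.3 ± 12.1 FPKM in WT (limma adjusted p = 0.533). The part of collection time in the heat shock differences was not tested.

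Immediate early genes, which handling of tissue induces within minutes, had a median of 1.13 over 13 tested genes. Limma called 0 of them, and 3 were higher at an unadjusted p under 0.05, against 4.28% of all tested genes. With array quality weights limma called 2 of them, beside 621 genes higher and 574 lower of all 11672 tested. The median was 0.60 without both replicate 1 libraries, 0.59 with no filter on low values and 0.27 with array quality weights. On the centred log2 scale their mean was 1.12, -0.41 and 0.84 in LKO replicates 1 to 3 and -0.53, -0.86 and -0.17 in WT replicates 1 to 3. Within LKO this mean was highest in replicate 1 and lowest in replicate 2. Btg2 was at 77.9, 23.0 and 41.8 FPKM in LKO and 4.77, 2.49 and 5.51 FPKM in WT (limma log2 difference 3.09 ± 0.47 SE, adjusted p = 0.135). Atf3 was at 5.08 ± 3.93 FPKM in LKO and 0.378 ± 0.119 FPKM in WT (limma adjusted p = 0.264), and Junb at 91.7 ± 38.7 FPKM in LKO and 38.7 ± 5.58 FPKM in WT (limma adjusted p = 0.441). The part of handling was not tested.

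Markers of other cells were summed because Hspb1 is also abundant in muscle and vessel walls. Of 5 skeletal muscle genes, 4 (Acta1, Ckm, Myh1 and Myh4) were at 0 in all 6 libraries. The 5 smooth muscle genes summed to 3.50, 1.82 and 1.45 FPKM in LKO and 3.93, 2.75 and 3.45 FPKM in WT, and the 10 sinusoidal endothelial genes to 60.8, 23.9 and 22.9 FPKM in LKO and 49.7, 35.4 and 46.7 FPKM in WT. The 10 stellate cell and fibroblast genes summed to 23.9, 25.0 and 15.8 FPKM in LKO and 14.9, 19.9 and 18.6 FPKM in WT, and the 7 cholangiocyte genes to 7.83, 28.5 and 7.06 FPKM in LKO and 17.4, 10.3 and 18.1 FPKM in WT. The 8 neutrophil genes, of which Ly6g was at 0 throughout, summed to 16.3, 11.4 and 3.27 FPKM in LKO and 3.82, 0.803 and 3.71 FPKM in WT, and the 10 macrophage genes to between 37.5 and 76.0 FPKM in LKO and between 26.7 and 63.5 FPKM in WT. The 8 B and plasma cell genes summed to between 8.94 and 16.9 FPKM in LKO and between 22.8 and 70.2 FPKM in WT, the 6 erythroid genes to between 91.3 and 149 FPKM in LKO and between 139 and 330 FPKM in WT, and the 8 T and NK cell genes to between 1.02 and 2.74 FPKM in LKO and between 1.84 and 2.59 FPKM in WT. No gene of these lists was called by limma. At an unadjusted limma p under 0.05, lower in LKO were 2 of 4 tested B and plasma cell genes and 1 of 5 erythroid genes. Higher were 2 of 4 neutrophil genes and 1 of 9 macrophage genes, and the other lists of this paragraph had none. Over all tested genes, 4.93% were lower and 4.28% higher. The part of these cells in the heat shock differences was not tested.

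Genes outside the lists that followed the members most closely were found by the root mean square distance between the centred log2(FPKM + 1) of a gene and the mean of the members over the 6 libraries. Among 8432 candidate genes averaging 1 FPKM or more, the nearest were Rplp2 (0.0802), Tbrg1 (0.102), Eif3b (0.106), Nars (0.111) and Rps13 (0.132), where the median distance was 0.582. Rplp2 and Rps13 encode cytosolic ribosomal proteins, Eif3b a subunit of a translation initiation factor and Nars an asparaginyl-tRNA synthetase. Rplp2 was at 52.3, 82.3 and 58.6 FPKM in LKO and 27.0, 51.2 and 45.2 FPKM in WT, with WT replicate 1 lowest and LKO replicate 2 highest. That order follows from choosing the gene nearest to the members' mean over the same 6 libraries. Of the members themselves, Dnajb1 lay nearest to their mean (0.113) and Hspb1 farthest from it (0.759).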

How the data were processed

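FPKM values for 54532 gene identifiers came in the authors' deposited tables, 1 for each library. That these were FPKM rests on the values: multiplied by merged exon length from GENCODE vM21 (54495 identifiers matched), 96.1% to 96.4% of those above 0 were whole reads within 0.05 of a read. The library total implied by the steps was not the recovered reads (recovered over implied 0.876 in WT replicate 1 to 1.098 in LKO replicate 1). It followed the median-of-ratios size factor of each library (relative ratio 0.995 to 1.004). The values were thus in effect already scaled between libraries by such factors, and voom used factors of the same kind. Tools listed, per the submitters' processing notes and without roles, were featureCounts 1.5.0-p3, HISAT2 2.0.5, CASAVA and DESeq2 1.20.0, with the build mm10.

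Groups came from sample titles. Limma-trend (limma 3.58.1, R 4.3.3) with robust empirical Bayes was fitted on log2(FPKM + 1) to the 11672 genes averaging 0.5 FPKM or more, with a term for genotype and Benjamini-Hochberg adjustment over all of them at 0.05. The fit was tested on simulated counts drawn independently for each library. That setting lacks the deviations shared between libraries here, so it does not show how the fit handles them. Log2 differences are LKO minus WT and understate changes of low genes. The members and lists were chosen with earlier results of these data known. Beyond the members and Arid2, the genes named were up to 3 per pathway list with the smallest p and the 5 nearest by distance. Hsf1, Hspa9, genes sharing sequence with members and markers at 0 were added after their values were seen. Alternatives changed the pseudocount, filter, scaling, weights, test, replicate block and libraries used. Plots used matplotlib 3.10.9 under Python 3.11.15, and tables pandas 2.3.3.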

Additional observations from a re-analysis of the deposited data

How the results depend on the processing

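All 10 heat shock genes kept a difference above 0 under every alternative that tested them. The filters and the replicate block cannot change these estimates, and the other alternatives reused the same libraries. The lowest differences were 0.009 for Hspa1a without both replicate 1 libraries, and 0.03 for Hsp90ab1 and 0.04 for Hsph1 without WT replicate 1. Limma called no member except Hspb1 and Hspa1b with array quality weights (2 members). Over all genes, 1 was higher and 4 were lower in LKO. Array quality weights gave 621 higher and 574 lower, no filter 0 and 1, and the replicate block 0 and 0. Scaling to an equal sum and quantile normalization each gave 0 higher, and leaving out both replicate 1 libraries gave 1 lower. With 1 library left out, 0 to 17 genes were higher and 0 to 4 lower. Members without overlap numbered 3, beside 8.0% of all tested genes without overlap in the same direction. They were 7 (25.9% of all tested genes) without both replicate 1 libraries and 1 (5.49%) when scaled to an equal sum. They were 3 to 7 (10.1% to 21.2%) with 1 library left out, where the members' median log2 difference ran from 0.22 to 0.79. The share of all tested genes thus moved with the setting as well. Arid2 ran from -0.19 to 0.12 with 1 library left out, turning to 0.12 without LKO replicate 2 and 0.09 without WT replicate 1. The median of the heat shock factor list turned to -0.08 without LKO replicate 1 and -0.07 without both replicate 1 libraries, that of HSP90 co-chaperones to -0.07 without WT replicate 1, that of the other HSP70 family to -0.0016 without LKO replicate 3, and that of the cold-inducible list to 0.17 without LKO replicate 3. The cause was not tested. Same-numbered libraries deviated together for numbers 1 and 2 (correlation across genes 0.49 and 0.30) but not for number 3 (-0.02), and LKO replicate 3 correlated best with WT replicate 2 (0.45), so the replicate block was not taken as a pairing; it called 0 members. Hspa1a, with 13 to 54 reads, was limited most by depth.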
